A study of Mus musculus with 27 samples.

Results

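The unfolded protein response and the integrated stress response were followed in mouse intestine through 10 genes: Hspa5, Hsp90b1, Dnajb9, Herpud1, Xbp1, Atf4, Ddit3, Atf3, Trib3 and Asns. They were taken by symbol from an expression table of 55401 gene entries, in which they match 11 rows. The additional row is a second Ddit3 entry, on the same stretch of chromosome 10, with 1 count in every library, and it was not tested. All 10 genes passed the filter on low values (3 or more libraries with an FPKM of 1 or above), as did 11118 genes in all. FPKM is the fragment count scaled by gene length and by library size.

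RNA came from intestine, as the libraries are labelled, of wild-type male C57BL/6 mice, 6 to 8 weeks old. The 27 libraries form 9 groups of 3. Mice were given 60Co gamma rays at 72 R/min. After 15 Gy, intestine was taken at 6 h, 24 h or 3 d, and after 6 Gy at 6 h or 24 h. CBLB502, a flagellin-derived agonist of Toll-like receptor 5 studied as a radioprotectant, was injected intraperitoneally at 0.2 mg/kg, with 15 Gy, with 6 Gy or without radiation, and these 3 groups were sampled at 24 h. In the design text CBLB502 is given 0.5 h before 15 Gy, and no interval is given there for 6 Gy. The control libraries are labelled as untreated, whereas the design text speaks of PBS as the control for CBLB502. That text names 7 groups of 10 mice and leaves out both 6 Gy groups of 24 h. Nothing states whether a library is 1 mouse or a pool, so the p-values speak only to the spread between libraries, which may be in part technical.

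The endoplasmic reticulum folds secreted and membrane proteins, and its load of unfolded protein is read by the sensors IRE1, PERK and ATF6. IRE1 splices the Xbp1 transcript, ATF6 and XBP1 induce chaperones and degradation factors, and PERK phosphorylates the initiation factor eIF2. Phosphorylated eIF2, which the kinases GCN2, PKR and HRI also produce, lowers general translation and raises translation of Atf4, whose protein induces genes of amino acid supply and stress-induced death. In the intestine the pathway is best known in goblet, Paneth and plasma cells, which secrete heavily.

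Total counts ran from 57.4 to 87.1 M per library. Levels below are CPM scaled by edgeR's TMM factors, and adjusted p-values are from edgeR's quasi-likelihood F test with Benjamini-Hochberg adjustment over the 11118 genes unless another tool is named. A gene is called at an adjusted p under 0.05. A set of 6 libraries differed from the rest, those taken at 24 h from mice given 6 Gy (CBLB502-treated mice included): their TMM factors were 1.23 to 1.43, against 0.713 to 1.09 in the other 21. They also held more of the markers of exocrine pancreas and fibroblasts than the other libraries. Summed CPM of 20 exocrine pancreas genes was 248 to 2541 in 6 Gy with CBLB502 and 79.2 to 8092 in 6 Gy at 24 h, against 6.77 to 7.5 in control, and summed fibroblast markers were 30.4 to 43.2 and 32.2 to 44.1, against 0.562 to 3.07. Among these markers, Prss2 was at 0 in all control libraries and at 4.85 to 554 CPM at 24 h after 6 Gy. Col1a1 was at 16.4 to 27.1 CPM there, against 0.0803 to 0.492 CPM in control. The part of these cell types in the 6 Gy 24 h results was not tested. Enterocyte markers summed to 58315 to 69024 CPM at 6 h after 6 Gy, 51312 to 72733 CPM in 6 Gy with CBLB502 and 58444 to 69662 CPM in 6 Gy at 24 h, against 113992 to 141977 CPM in control. In bulk tissue fewer cells of a type and less RNA per cell cannot be told apart for any gene below.

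Per length of gene, the ER chaperones were the most abundant of the 10 and Asns the least. Mean FPKM over the 27 libraries was 72.6 for Hspa5, 64.3 for Hsp90b1, 55.4 for Atf4, 52.2 for Herpud1, 44.9 for Atf3, 26.5 for Dnajb9, 21.0 for Xbp1, 10.8 for Ddit3, 8.45 for Trib3 and 2.95 for Asns. Neighbours in this order overlap in their ranges over the libraries: Hspa5 spanned 18.7 to 126 FPKM and Hsp90b1 21.4 to 113. The genes differed more in how far they moved. The highest group mean over the lowest, in CPM, was 10.5 for Atf3, 9.64 for Asns, 6.24 for Herpud1 and 5.68 for Trib3. It was 2.42 for Dnajb9, 2.24 for Hspa5, 2.06 for Hsp90b1, 1.92 for Ddit3, 1.88 for Atf4 and 1.82 for Xbp1.

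**Figure D1:**
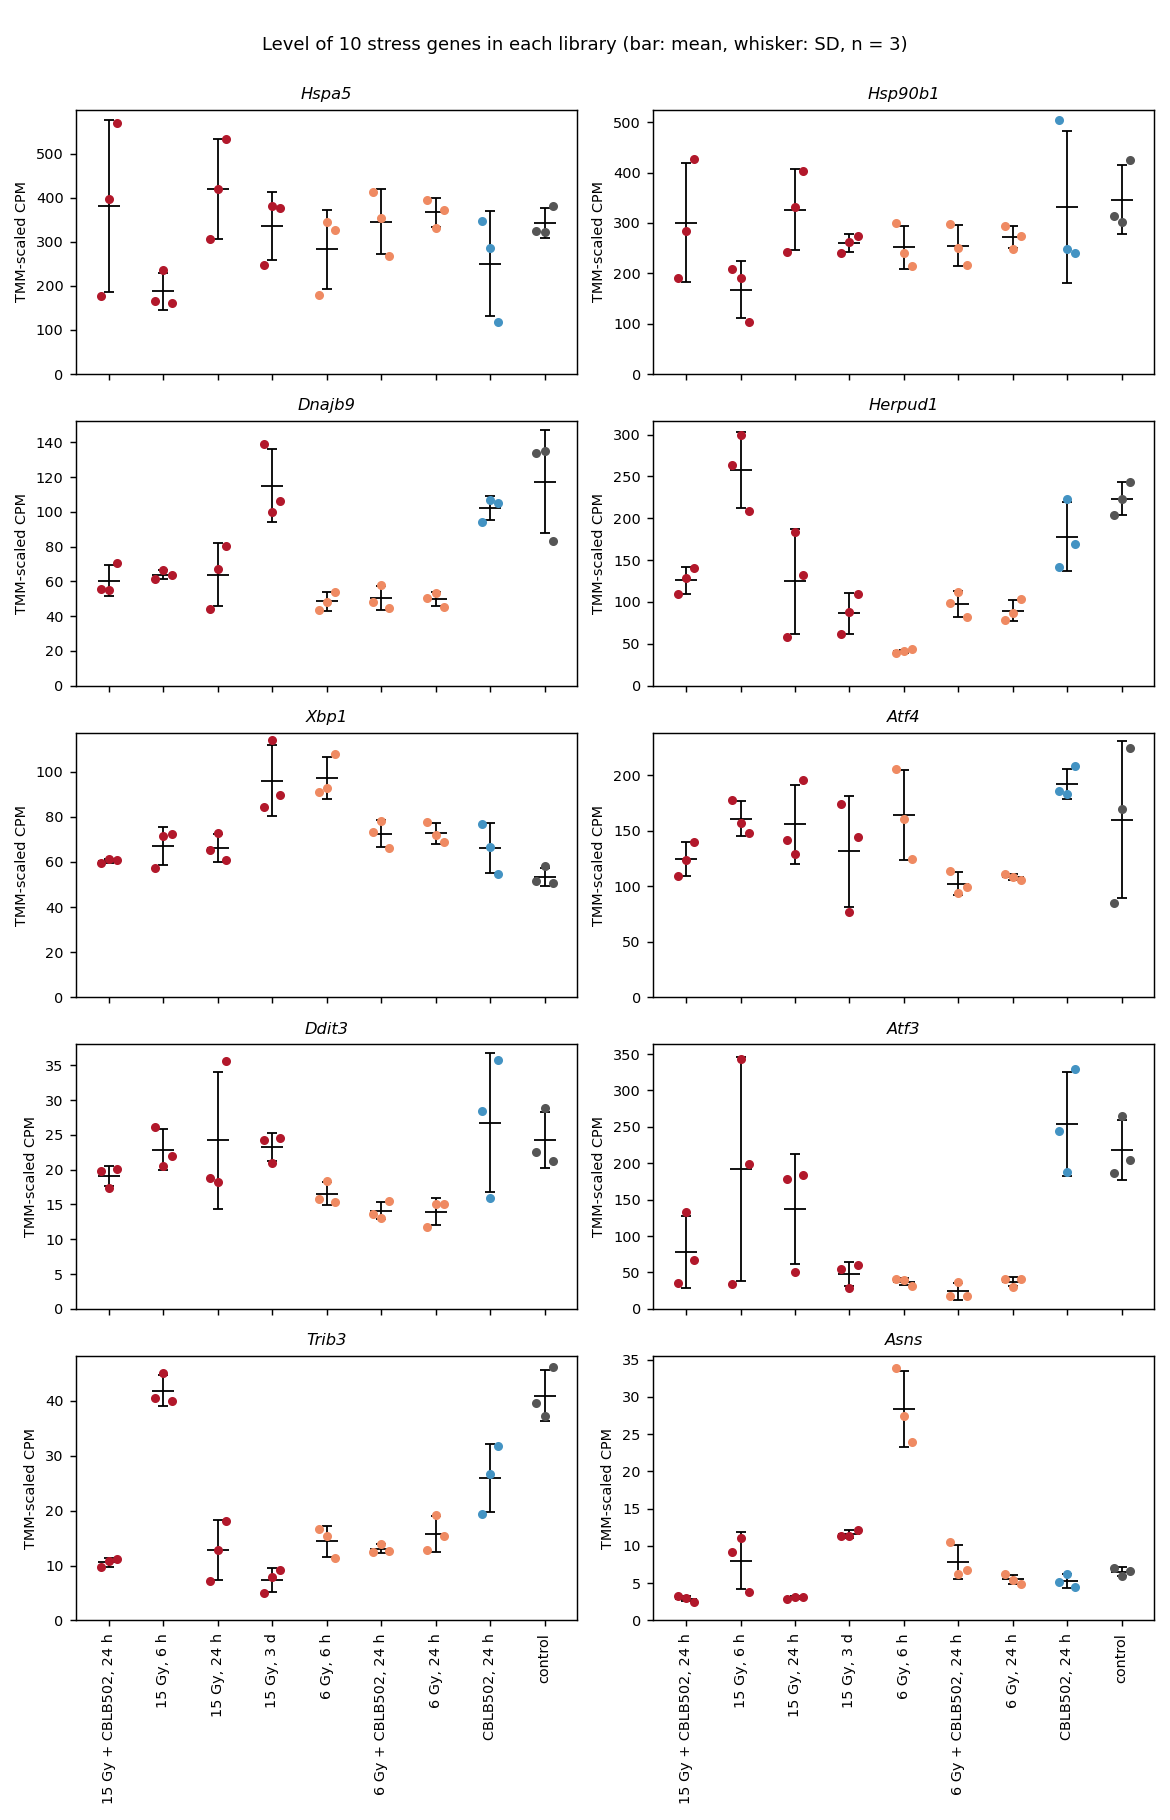
Level of each of the 10 genes in TMM-scaled CPM (vertical axis, linear from 0) in every library of the 9 groups (points), with the group mean (bar) and SD (whisker, n = 3). Herpud1 lies between 39.5 and 43.2 CPM at 6 h after 6 Gy, against 204 to 243 CPM in control, while Asns is highest in the same 6 Gy libraries.

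Sequence near the RefSeq start of these genes is shown because it holds matches to elements through which the 2 branches are known to act. The ER stress response element (ERSE, CCAAT and CCACG with 9 bases between them) binds ATF6 together with NF-Y, the shorter ERSE-II (ATTGG and CCACG with 1 base between them) is known from HERPUD1, and the core of the C/EBP-ATF response element (CARE, TGATGNAA) is bound by ATF4. Both strands of 300 bases around each RefSeq gene start, 250 before it and 50 after, were searched on build GRCm38.p6. ERSE was found in 2 of the 10 genes and in 0.119% of 32851 promoters, ERSE-II in 1 gene and in 0.0365% of promoters, and the CARE core in 4 genes and in 3.97% of promoters. The core of the unfolded protein response element (TGACGTGG, 0.676% of promoters) and the cAMP response element (TGACGTCA, 1.79%) were in none of the 10 windows. The RefSeq start is not always the gene start in the file: the stretches of Hspa5, Atf3 and Asns printed here lie inside the intervals given for these genes below. A match is a run of letters, not a measured binding site. Capitals mark the matches, and each sequence is given 5′ to 3′ on the strand of its gene:
Hspa5, chr2:34772015-34772053, plus strand: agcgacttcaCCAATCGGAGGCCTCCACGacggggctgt
Hsp90b1, chr10:86705523-86705666, minus strand: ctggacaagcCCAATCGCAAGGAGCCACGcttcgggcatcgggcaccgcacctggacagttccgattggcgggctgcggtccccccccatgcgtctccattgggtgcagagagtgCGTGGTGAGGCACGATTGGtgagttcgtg
Herpud1, chr8:94386307-94386397, plus strand: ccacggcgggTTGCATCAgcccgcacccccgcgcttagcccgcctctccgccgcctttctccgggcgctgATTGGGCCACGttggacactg
Atf3, chr1:191183426-191183453, minus strand: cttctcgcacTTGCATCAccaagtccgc
Asns, chr6:7693215-7693242, minus strand: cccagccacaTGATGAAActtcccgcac
In Hspa5 the ERSE begins at -65 from the start. Hsp90b1 holds 1 ERSE on each strand. Herpud1 holds a CARE core on the opposite strand, begun at -112, and an ERSE-II at -52, so it was the only one of the 10 with a match to both kinds of element. The fourth CARE core lies after the start of Trib3, at 14 on the opposite strand.

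Against control, more of the 10 genes fell than rose in every comparison that had a call. At 6 h after 6 Gy, Asns and Xbp1 rose (2 of 10, where 13.1% of all tested genes rose) and Herpud1, Dnajb9, Trib3 and Atf3 fell (4 of 10, where 15.3% fell), 6 calls in all against a share of 28.4%. The 15 Gy libraries of 6 h had 0 that rose (12.2% of all genes) and 2 that fell (16.8%), against 29.0% called in all. Those of 24 h had 0 that rose (2.63%) and 3 that fell (2.31%), against 4.94%, and those of 3 d had 2 that rose (13.9%) and 3 that fell (15.6%), against 29.4%. The 6 Gy libraries of 24 h had 1 that rose (16.6%) and 5 that fell (16.4%), against 33.0%. With CBLB502, 0 rose (8.65%) and 4 fell (8.2%) at 24 h after 15 Gy, against 16.9%, and 1 rose (19.8%) and 5 fell (17.5%) at 24 h after 6 Gy, against 37.3%. CBLB502 without radiation called 0 of the 10, where 2.48% of all genes rose and 3.26% fell, 5.74% together. At 6 h after 15 Gy the share of the 10 that was called lies below that of all genes. The median log2 fold change of the 10 was -0.51 at 6 h after 6 Gy, -0.04 at 6 h after 15 Gy, -0.38 at 24 h after 15 Gy, -0.17 at 3 d after 15 Gy and -0.68 at 24 h after 6 Gy. Over all tested genes the medians of the same comparisons were 0.05, 0.02, 0.03, 0.02 and 0.07. These 8 comparisons share the control libraries, so they are not independent of each other.

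Counted by libraries that do not overlap with control, in either direction, the numbers were 8 of 10 at 6 h after 6 Gy (39.8% of all tested genes), 3 at 6 h after 15 Gy (39.6%), 6 at 24 h after 15 Gy (23.3%) and 6 at 3 d after 15 Gy (41.2%). They were 7 at 24 h after 6 Gy (46.8%), 7 in 15 Gy with CBLB502 (35.1%), 7 in 6 Gy with CBLB502 (50.5%) and 1 after CBLB502 alone (21.9%).

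**Figure D2:**
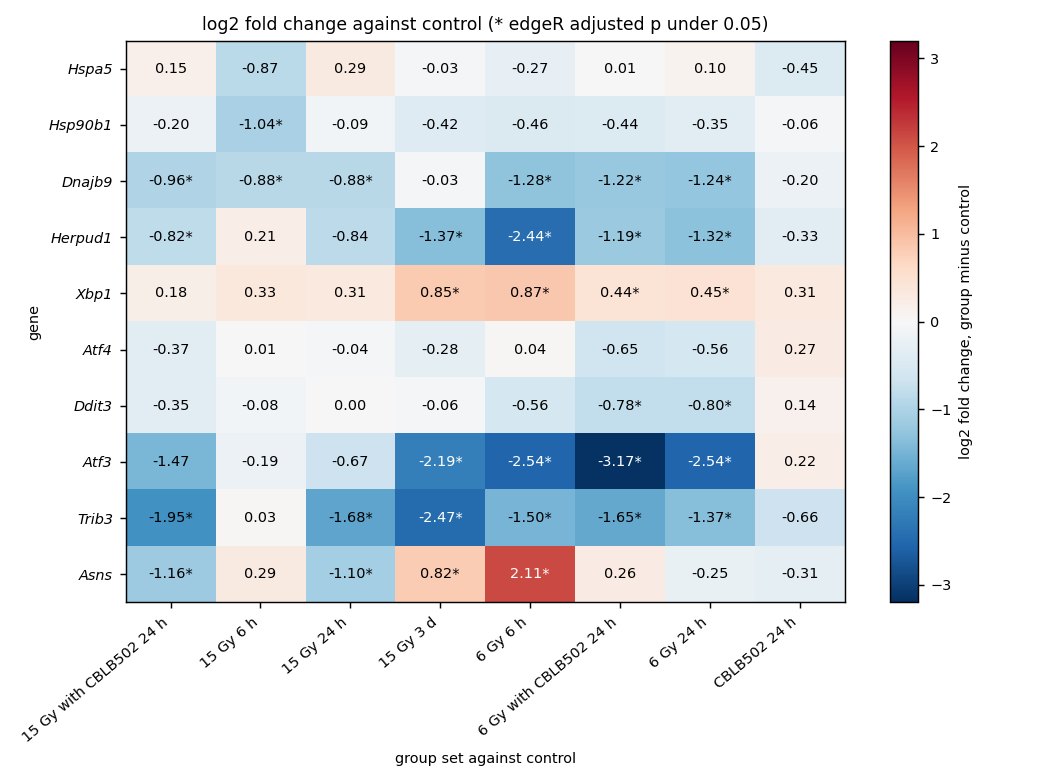
Log2 fold change of the 10 genes (rows) in each of the 8 groups set against control (columns), as a colour from blue (lower) to red (higher) with the value printed and calls marked by an asterisk. Trib3 and Dnajb9 are each called lower in 6 of 8 columns, Xbp1 is called higher in 4 and lower in 0, and Hspa5 and Atf4 are called in 0.

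Hspa5 (chromosome 2, 34771970 to 34777547, plus strand, in the file's coordinates, which are those of GRCm38) encodes BiP, the chief HSP70 chaperone of the ER and the repressor of its sensors. It had 165, 236 and 161 CPM at 6 h after 15 Gy, 307, 420 and 533 CPM at 24 h and 247, 382 and 377 CPM at 3 d, against 325, 322 and 382 CPM in control. All 3 libraries of 15 Gy at 6 h lay below every control library, but the difference missed the threshold, with a log2 fold change of -0.87 (SE 0.37, adjusted p = 0.0803). With these 2 groups fitted alone it was -0.90 and was called (adjusted p = 0.0247). In 8 comparisons with control Hspa5 had 0 calls, and at 6 h after 6 Gy the 95% interval of its log2 fold change was -1.04 to 0.49. Libraries of a group could differ widely: in 15 Gy with CBLB502 Hspa5 had 178, 396 and 569 CPM.

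Hsp90b1 (chromosome 10, 86690209 to 86705509, minus strand) encodes GRP94, the HSP90 chaperone of the ER. It had 209, 190 and 104 CPM at 6 h after 15 Gy, against 313, 301 and 425 CPM in control. The groups do not overlap, and Hsp90b1 fell 2.06-fold (log2 fold change -1.04, SE 0.30, adjusted p = 0.0128). Without control library 3 the adjusted p was 0.0538 and without the third 15 Gy 6 h library 0.0759, so the call rests on these. The mitochondrially encoded share of counts was also lowest there, 4.59 to 9.03% at 6 h after 15 Gy against 11.76 to 17.83% in control. Leaving mitochondrial genes out of the fit kept the call. Any other part of this share in the result was not tested. In the other 7 groups Hsp90b1 was not called, with log2 fold changes of -0.46 to -0.06.

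Dnajb9 (chromosome 12, 44205559 to 44210326, minus strand) encodes ERdj4, a co-chaperone of BiP that is a well-known target of spliced XBP1. It had 61.5, 66.6 and 63.7 CPM at 6 h after 15 Gy, 44.3, 66.9 and 80.6 CPM at 24 h and 139, 99.9 and 106 CPM at 3 d, against 134, 135 and 83.3 CPM in control. It had 43.3, 48.3 and 53.8 CPM at 6 h after 6 Gy and 50.7, 53.4 and 45.3 CPM at 24 h. Every irradiated library of 6 h and 24 h lay below the lowest control library, whereas the libraries of 3 d after 15 Gy and of CBLB502 alone (94.4, 107 and 105 CPM) overlapped control. Dnajb9 fell 2.42-fold at 6 h after 6 Gy (log2 fold change -1.28, SE 0.20, adjusted p = 4.8e-05), and at 6 h after 15 Gy its log2 fold change was -0.88 (SE 0.20, adjusted p = 0.00193). At 24 h it was again -0.88 after 15 Gy (SE 0.20, adjusted p = 0.0126) and -1.24 after 6 Gy (SE 0.20, adjusted p = 0.000148). At 3 d after 15 Gy it was -0.03, with an interval of -0.43 to 0.37. The call at 24 h after 15 Gy is lost without control library 1 (adjusted p = 0.0671), without control library 2 (0.0609) and without the first irradiated library (0.0596).

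Of 20 other tested genes of ER folding, 0 rose and 5 fell at 6 h after 6 Gy, with a median log2 fold change of -0.40. P4hb, a protein disulfide isomerase, fell to 2400 ± 57.7 CPM at 6 h after 6 Gy, against 4331 ± 220 CPM in control (SD, n = 3 each, adjusted p = 3.7e-05). Txndc5, of the same family, had a log2 fold change of -1.08 (SE 0.22) and Cnpy2 of -0.65 (SE 0.17). The 15 Gy libraries of 6 h had 1 that rose and 2 that fell, with P4hb at 6065 ± 423 CPM, higher than in control (adjusted p = 0.0069), while Dnajc3 and Ero1l fell by 0.67 and 0.71 on the log2 scale, the call of Ero1l being lost with limma (adjusted p = 0.0712). After 15 Gy, 0 of 20 were called at 24 h (4.94% of all tested genes), and 1 rose (13.9%) and 4 fell (15.6%) at 3 d. Of all tested genes, 13.1% rose and 15.3% fell at 6 h after 6 Gy, and 12.2% and 16.8% at 6 h after 15 Gy. At 24 h after 6 Gy these shares were 16.6% and 16.4%. They apply to the edgeR counts of the lists below too, and a count near them does not set a list apart from all genes. For 6 Gy at 24 h the direction depends on the scaling: 0 rose and 5 fell with edgeR on counts, but 6 rose and 1 fell with limma on log2(FPKM + 1), where the median of all genes was 0.45, against 0.07 with edgeR. Of 15 tested genes of ER translocation and signal peptide processing, 0 rose and 2 fell at 6 h after 6 Gy, and 0 rose and 6 fell at 6 h after 15 Gy, among them Sec62 and Ssr3. For 6 Gy at 24 h these too changed direction with the scaling, with 0 that rose and 3 that fell with edgeR but 5 and 0 with limma.

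Goblet cells secrete mucin through the ER. Summed over 10 goblet markers, CPM was 2387 to 7277 at 6 h after 6 Gy and 8575 to 16544 at 6 h after 15 Gy, against 7191 to 13364 in control. At 6 h, 7 of 9 tested markers fell after 6 Gy and 0 were called after 15 Gy. At 24 h after 6 Gy the sum of 8703 to 10262 CPM lay within the range of control. Summed plasma cell markers were 58.6 to 87.9 CPM at 6 h after 6 Gy and 111 to 148 CPM at 6 h after 15 Gy, against 89.0 to 126 CPM in control. Muc2 and Tff3 were detected in every library. Of the plasma cell markers Mzb1 was at 0 in all 6 Gy libraries of 6 h and at 0.185 to 0.537 CPM in control, and Sdc1, which enterocytes also express, was at 38.4 to 44.8 CPM, against 44.6 to 89.3 CPM in control. The part of either cell type in the ER results was not tested.

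Herpud1 (chromosome 8, 94386438 to 94395377, plus strand) encodes a membrane protein of ER-associated degradation. It had 264, 299 and 209 CPM at 6 h after 15 Gy, 58.3, 183 and 132 CPM at 24 h and 61.2, 88.5 and 110 CPM at 3 d, against 204, 223 and 243 CPM in control. It had 39.5, 41.1 and 43.2 CPM at 6 h after 6 Gy and 78.4, 86.4 and 103 CPM at 24 h. The 6 Gy 6 h libraries were the lowest of all 27 and close to each other, whereas the 15 Gy 6 h libraries overlapped control. Herpud1 fell 5.41-fold at 6 h after 6 Gy (log2 fold change -2.44, SE 0.29, adjusted p = 2.7e-06). It also fell at 3 d after 15 Gy (-1.37, SE 0.28, adjusted p = 0.001) and at 24 h after 6 Gy (-1.32, SE 0.28, adjusted p = 0.00153). At 24 h after 15 Gy its log2 fold change of -0.84 missed the threshold (SE 0.28, adjusted p = 0.0823), with the first library far below the other 2.

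Of 13 tested genes of ER-associated degradation, Herpud1 not counted, 0 rose and 6 fell at 6 h after 6 Gy, with a median log2 fold change of -0.42. Fam8a1, a cofactor of the HRD1 ligase, had 119 ± 3.75 CPM at 6 h after 6 Gy, against 224 ± 11.7 CPM in control (SD, n = 3 each, adjusted p = 3.1e-06). Os9 and Erlec1, lectins that bind misfolded glycoproteins, fell by 0.80 and 0.86 on the log2 scale. With 15 Gy at 6 h 2 rose and 2 fell: Fam8a1 fell to 110 ± 13.1 CPM, against 224 ± 11.7 CPM in control, but Os9 rose to 573 ± 18.0 CPM, against 378 ± 45.9 CPM in control. After 15 Gy, 0 of 13 were called at 24 h, and 0 rose and 4 fell at 3 d, or 1 with limma on log2(FPKM + 1). For 6 Gy at 24 h 0 rose and 5 fell with edgeR, but 5 rose and 0 fell with limma on log2(FPKM + 1), so no direction holds there under both scalings.

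Xbp1 (chromosome 11, 5520659 to 5525893, plus strand) encodes the transcription factor made active by IRE1 splicing. Gene counts do not separate its spliced from its unspliced transcript. It had 57.5, 71.5 and 72.4 CPM at 6 h after 15 Gy, 65.3, 72.8 and 60.7 CPM at 24 h and 84.5, 114 and 89.8 CPM at 3 d, against 51.7, 58.0 and 50.6 CPM in control. It had 91.1, 93.0 and 108 CPM at 6 h after 6 Gy and 77.9, 71.8 and 68.7 CPM at 24 h. The 6 Gy libraries and those of 24 h and 3 d after 15 Gy lay above every control library. Xbp1 rose 1.82-fold at 6 h after 6 Gy (log2 fold change 0.87, SE 0.13, adjusted p = 4.5e-05) and 1.80-fold at 3 d after 15 Gy (0.85, SE 0.13, adjusted p = 6.4e-05). At 24 h after 6 Gy the log2 fold change was 0.45 (SE 0.13, adjusted p = 0.0137), a call lost without the first irradiated library (adjusted p = 0.0603). At 6 h and 24 h after 15 Gy the values of 0.33 and 0.31 missed the threshold. Xbp1 and its target Dnajb9 were called in opposite directions in 3 of these comparisons, at 6 h after 6 Gy and in both 6 Gy groups of 24 h.

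Atf4 (chromosome 15, 80255184 to 80257541, plus strand) encodes the transcription factor of the integrated stress response, which is set mainly by translation. It had 178, 157 and 148 CPM at 6 h after 15 Gy and 206, 161 and 125 CPM at 6 h after 6 Gy, against 85.1, 170 and 225 CPM in control. Both irradiated groups lie within the range of control. In 8 comparisons Atf4 had 0 calls, and the largest difference, in 6 Gy with CBLB502, was -0.65 on the log2 scale (interval -1.22 to -0.07, adjusted p = 0.0725). DESeq2 called that difference (adjusted p = 0.0373), as did edgeR without control library 1 (-0.93, adjusted p = 0.0098), the control library with 85.1 CPM. Without it the 6 Gy 24 h difference was called too (-0.84, adjusted p = 0.0202). Other alternatives went the other way, up to a log2 fold change of 0.12 at 24 h after 6 Gy and 0.06 in 6 Gy with CBLB502. In FPKM the means of these groups were 54.6 and 52.6, against 54.2 in control, so the fall depends on the scaling.

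Ddit3 (chromosome 10, 127290774 to 127296288, plus strand) encodes CHOP, a transcription factor of stress-induced apoptosis. It had 26.2, 20.5 and 22 CPM at 6 h after 15 Gy, 18.8, 18.3 and 35.6 CPM at 24 h and 24.3, 21.0 and 24.5 CPM at 3 d, against 22.6, 28.9 and 21.3 CPM in control. It had 15.8, 18.4 and 15.4 CPM at 6 h after 6 Gy and 11.7, 15.1 and 15.1 CPM at 24 h. No group stood above control, and the 6 Gy libraries lay below all 3 control libraries. Ddit3 fell 1.74-fold at 24 h after 6 Gy (log2 fold change -0.80, SE 0.24, adjusted p = 0.0157). With limma on log2(FPKM + 1) this difference was -0.21 (adjusted p = 0.399), where the median of all tested genes was 0.45, against 0.07 with edgeR. It is also lost without control library 2 (adjusted p = 0.0765) and without the first irradiated library (0.0764). The gene overlaps Mars1 on the opposite strand, whose summed count is 36.1% of that of Ddit3. The strand setting of the counting is not given in the sources used here, so the split of reads between these genes is uncertain.

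Atf3 (chromosome 1, 191170296 to 191218039, minus strand) encodes a transcription factor induced by ATF4 and, as an immediate early gene, by many other stimuli. It had 34.8, 343 and 199 CPM at 6 h after 15 Gy, 178, 50.2 and 184 CPM at 24 h and 54.4, 29.3 and 59.8 CPM at 3 d, against 186, 265 and 205 CPM in control. It had 40.6, 40.3 and 31.8 CPM at 6 h after 6 Gy and 41.4, 29.9 and 41.4 CPM at 24 h. Both 6 Gy groups and the 3 d group lay below control without overlap. So did 24 h after 15 Gy, but narrowly, with up to 184 CPM against at least 186 CPM in control. The 15 Gy groups of 6 h and 24 h each held a library far below the other 2. Atf3 fell 5.82-fold at 6 h after 6 Gy (log2 fold change -2.54, SE 0.61, adjusted p = 0.00327), by 2.54 on the log2 scale at 24 h (SE 0.61, adjusted p = 0.00357) and by 2.19 at 3 d after 15 Gy (SE 0.60, adjusted p = 0.00899).

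Of 13 other tested immediate early genes, 0 rose and 7 fell at 6 h after 6 Gy, with a median log2 fold change of -0.91. Jun had 86.2 ± 9.45 CPM at 6 h after 6 Gy, against 256 ± 31.6 CPM in control (SD, n = 3 each, adjusted p = 7.1e-05). Fos fell by 1.93 and Klf6 by 1.34 on the log2 scale. After 15 Gy, 0 rose and 1 fell at 6 h, 0 of 13 were called at 24 h, and 1 rose and 4 fell at 3 d. With 6 Gy at 24 h 1 rose and 7 fell, or 2 and 4 with limma on log2(FPKM + 1). The gene that rose at 3 d and at 24 h after 6 Gy was Myc.

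Trib3 (chromosome 2, 152337422 to 152344032, minus strand) encodes a pseudokinase induced by ATF4 and CHOP that restrains AKT and ATF4 itself. It had 40.5, 45.1 and 39.9 CPM at 6 h after 15 Gy, 7.28, 12.9 and 18.2 CPM at 24 h and 5.0, 7.87 and 9.25 CPM at 3 d, against 39.6, 37.2 and 46.1 CPM in control. It had 16.7, 15.3 and 11.3 CPM at 6 h after 6 Gy and 12.8, 19.3 and 15.4 CPM at 24 h. The 15 Gy libraries of 6 h lay within the range of control, and every other irradiated library lay below it. Trib3 fell 5.56-fold at 3 d after 15 Gy (log2 fold change -2.47, SE 0.27, adjusted p = 1e-06). At 24 h after 15 Gy it was -1.68 (SE 0.26, adjusted p = 0.000959), at 6 h after 6 Gy -1.50 (SE 0.26, adjusted p = 0.00018) and at 24 h after 6 Gy -1.37 (SE 0.26, adjusted p = 0.000629). At 6 h after 15 Gy the interval was -0.50 to 0.56. With 15 Gy 24 h and control fitted alone, the adjusted p of Trib3 was 0.135, in a fit that called 12 genes in all.

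Asns (chromosome 6, 7675169 to 7693254, minus strand) encodes asparagine synthetase, a target of ATF4 through its CARE. It had 9.21, 11.1 and 3.78 CPM at 6 h after 15 Gy, 2.86, 3.16 and 3.17 CPM at 24 h and 11.3, 11.3 and 12.2 CPM at 3 d, against 7.09, 5.98 and 6.60 CPM in control. It had 33.9, 27.4 and 23.9 CPM at 6 h after 6 Gy and 6.20, 5.44 and 4.93 CPM at 24 h. The 6 Gy 6 h libraries stood above all others, the 3 d libraries above control, and the 15 Gy 24 h libraries below control. Asns rose 4.32-fold at 6 h after 6 Gy (log2 fold change 2.11, SE 0.27, adjusted p = 6.3e-06). It rose 1.77-fold at 3 d after 15 Gy (0.82, SE 0.26, adjusted p = 0.0237) and fell 2.14-fold at 24 h after 15 Gy (-1.10, SE 0.27, adjusted p = 0.023). The last 2 calls depend on single libraries and on the test. That at 24 h is lost with limma on log2(FPKM + 1) (-0.57, adjusted p = 0.136) and on log2(FPKM + 0.1) (0.0778) and with the 2 groups fitted alone (0.109), and that at 3 d with no filter on low values (0.057). Among single libraries, that at 3 d is lost without control library 2 (adjusted p = 0.0784), control library 3 (0.0532) or the third irradiated library (0.0598), and that at 24 h without control library 1 (0.0751) or without irradiated library 1, 2 or 3 (0.0726, 0.0592 and 0.0532).

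Cytosolic aminoacyl-tRNA synthetases load amino acids on tRNA and include known ATF4 targets. Of 20 tested, 10 rose and 1 fell at 6 h after 6 Gy, with a median log2 fold change of 0.44, against 0.05 for all genes. Aars, Nars, Sars, Eprs, Iars, Lars, Dars, Qars and Farsa were not called there. The part of ATF4 in these changes was not tested. Yars had 16.8 ± 1.71 CPM at 6 h after 6 Gy, against 7.08 ± 1.69 CPM in control, Rars had 52.1 ± 1.33 CPM against 30.9 ± 1.54 CPM, and Tars had 45.7 ± 3.80 CPM against 22.6 ± 1.47 CPM (SD, n = 3 each). The gene that fell was Wars, which interferon also induces, a call lost with limma (adjusted p = 0.0799). At 3 d after 15 Gy 15 rose and 0 fell, with a median of 0.62. Among the other 15 Gy libraries, 1 rose and 4 fell at 6 h (0 and 0 with limma), and 2 rose and 0 fell at 24 h (5 with DESeq2), although Asns fell there. With 6 Gy at 24 h 10 rose and 0 fell (19 and 0 with limma), although Asns was not called (interval -0.80 to 0.30).

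**Figure D3:**
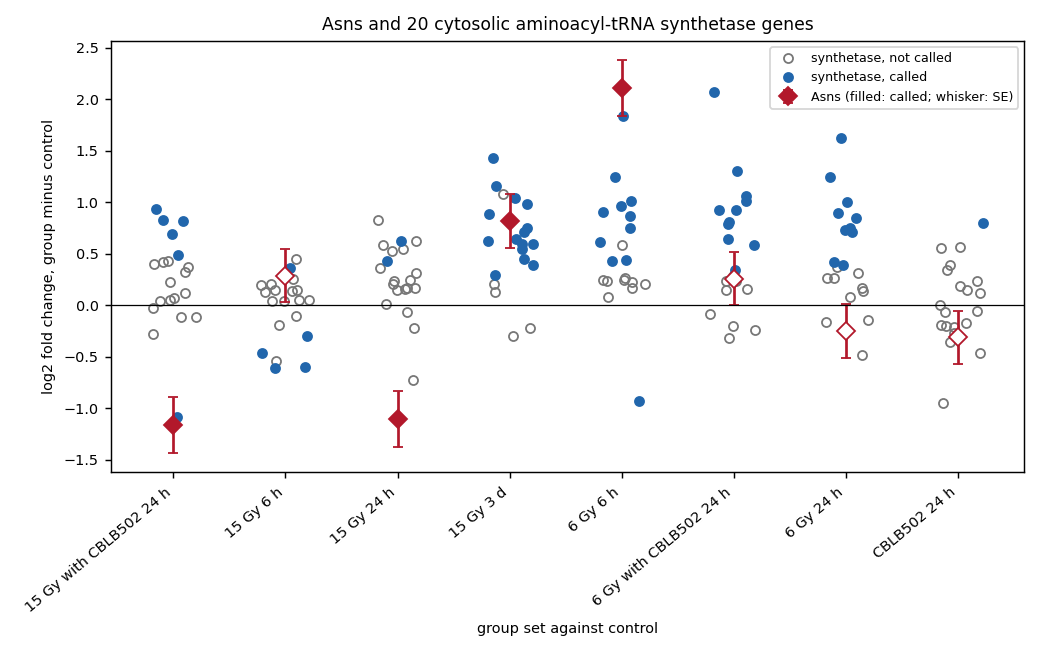
Log2 fold change (vertical axis) of Asns (diamonds, whisker SE) and of 20 cytosolic aminoacyl-tRNA synthetase genes (circles) in each of the 8 groups set against control, filled where called. At 6 h after 6 Gy Asns is at 2.11 and 10 synthetases are called higher, and at 3 d after 15 Gy Asns is at 0.82 and 15 are.

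Other targets of ATF4 did not move as one. Of 9 tested stress targets, 3 rose and 1 fell at 6 h after 6 Gy: Gdf15, Sesn2 and Ddit4 rose and Cebpb fell. Gdf15 and Sesn2 are also known targets of p53. With edgeR, Gdf15 was called higher in every irradiated group, with log2 fold changes of 4.40 at 6 h after 15 Gy, 3.25 at 24 h, 3.93 at 3 d, 2.39 at 6 h after 6 Gy and 3.99 at 24 h, at low levels of 0.739 to 2.97 CPM in these groups, against 0.139 ± 0.0403 CPM in control (SD, n = 3). At this level limma on log2(FPKM + 1) did not call it at 24 h after 15 Gy (adjusted p = 0.16), in 15 Gy with CBLB502 (0.0922) or at 6 h after 6 Gy (0.328). Of 4 tested genes of serine, proline and one-carbon synthesis, 4 rose at 24 h after 6 Gy, and Aldh18a1 also rose at 24 h after 15 Gy, to 70.6 ± 22.5 CPM, against 15.8 ± 2.33 CPM in control. Of 4 tested amino acid transporters, Slc3a2 was called lower with edgeR in 6 of the 8 groups, all but 6 h and 24 h after 15 Gy, and had 401 ± 40.2 CPM at 6 h after 6 Gy, against 791 ± 53.1 CPM in control (SD, n = 3 each).

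Among 15 tested sensors and regulators of eIF2, 3 rose and 2 fell at 6 h after 6 Gy. Eif2ak3, which encodes PERK, had 25.9 ± 2.59 CPM at 6 h after 6 Gy, against 56.5 ± 16.0 CPM in control (SD, n = 3 each, adjusted p = 0.000306), and was not called in the 15 Gy groups. With edgeR it also fell at 24 h after 6 Gy (-0.93), a call lost with limma (adjusted p = 0.132). Ern1, which encodes IRE1, had a log2 fold change of 0.24 at 6 h after 6 Gy (SE 0.16, adjusted p = 0.289), and rose with edgeR at 3 d after 15 Gy (0.45, adjusted p = 0.0388), in 15 Gy with CBLB502 (0.51, adjusted p = 0.0315) and at 24 h after 6 Gy (0.43, adjusted p = 0.0455), the last call being lost with DESeq2 (adjusted p = 0.0532). Mbtps1, the site-1 protease that cuts ATF6, was called higher in all 8 groups, by 0.65 to 1.26 on the log2 scale, except that limma did not call it for CBLB502 alone (adjusted p = 0.0738). Ppp1r15b, a subunit of the phosphatase that removes the phosphate from eIF2, fell to 234 ± 9.62 CPM at 6 h after 6 Gy, against 341 ± 1.78 CPM in control (SD, n = 3 each, adjusted p = 0.000594). Its edgeR calls at 24 h (-0.45) and 3 d (-0.48) after 15 Gy and in 6 Gy without (-0.79) and with CBLB502 (-0.85) at 24 h are lost with limma on log2(FPKM + 1), while that in 15 Gy with CBLB502 (-0.58) is not.

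The direct comparison of doses at 6 h found 3 of the 10 genes higher (20.2% of all tested genes) and 2 lower (23.0%) after 15 Gy than after 6 Gy, where 43.2% of all were called. Libraries of the 2 doses did not overlap for 7 of the 10, and for 50.3% of all genes. Herpud1 was 6.24-fold higher after 15 Gy (log2 fold change 2.64, SE 0.29, adjusted p = 4.6e-07), Trib3 2.89-fold higher (1.53, SE 0.26, adjusted p = 7.1e-05) and Atf3 5.11-fold higher (2.35, SE 0.60, adjusted p = 0.0033). Asns was 3.53-fold lower after 15 Gy (-1.82, SE 0.27, adjusted p = 1.4e-05) and Xbp1 1.45-fold lower (-0.54, SE 0.13, adjusted p = 0.00237). These 5 calls held under every alternative run. For Atf3 the groups overlap, since the first 15 Gy library had 34.8 CPM, against 31.8 to 40.6 CPM after 6 Gy. Around them, 0 synthetases were higher and 12 lower after 15 Gy than after 6 Gy (median -0.64, against -0.03 for all genes), 8 genes of ER folding were higher and 2 lower (5 and 1 with limma), 7 of ER-associated degradation were higher and 1 lower, and 6 immediate early genes were higher and 0 lower.

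Within 15 Gy, the genes took different courses. Between 6 h and 24 h, 2 of the 10 rose (18.7% of all tested genes) and 3 fell (13.5%), where 32.2% of all were called, and 5 did not overlap (41.5%). Hspa5 was 2.24-fold higher at 24 h than at 6 h (log2 fold change 1.17, SE 0.37, adjusted p = 0.0195) and Hsp90b1 1.94-fold higher (0.96, SE 0.30, adjusted p = 0.0182), without overlap. Trib3 was 3.28-fold lower at 24 h (-1.71, SE 0.26, adjusted p = 4.6e-05), Asns 2.62-fold lower (-1.39, SE 0.27, adjusted p = 0.000462) and Herpud1 2.06-fold lower (-1.05, SE 0.28, adjusted p = 0.00655). The 2 chaperone calls depend on single libraries: without the third 24 h library the adjusted p was 0.0833 for Hspa5 and 0.0824 for Hsp90b1, without the third 6 h library it was 0.0783 and 0.108, and without the first 6 h library that of Hspa5 was 0.0638. Between 24 h and 3 d, 3 of the 10 rose (11.2%) and 1 fell (14.1%), where 25.3% of all genes were called, and 3 did not overlap (39.0%). Asns was 3.78-fold higher at 3 d than at 24 h (1.92, SE 0.27, adjusted p = 2.7e-05), Dnajb9 1.80-fold higher (0.85, SE 0.20, adjusted p = 0.00278) and Xbp1 1.45-fold higher (0.54, SE 0.13, adjusted p = 0.0046). Trib3 was 1.73-fold lower (-0.79, SE 0.26, adjusted p = 0.029), a call lost without 24 h library 2 or 3 (adjusted p = 0.0626 and 0.248) or 3 d library 1 or 2 (0.149 and 0.0518).

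Some of the 10 varied together from library to library. Over the 27 libraries, Pearson's r of log2 CPM was 0.65 for Hspa5 and Hsp90b1, 0.71 for Herpud1 and Trib3, 0.64 for Xbp1 and Asns and -0.66 for Xbp1 and Herpud1. It was -0.02 for Trib3 and Asns, both with a CARE core, and -0.10 for Hspa5 and Herpud1. The libraries share groups and scaling, so these values describe the data and are not tested. The 10 themselves, second entries of a symbol and predicted or clone-named genes were left out of a ranking of tested genes by this r. In it the genes most like Asns were Sh3bp4 (r = 0.91), Med9 (0.90), Zdhhc15 (0.88), Cdkn2aipnl (0.86) and Ampd3 (0.86). Those most like Hspa5 were Zfp322a (0.72), Rnft1 (0.71), Ankrd16 (0.70), Mfsd14b (0.69) and Gcnt4 (0.69).

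CBLB502 made no difference that could be called in any of the 10 genes. Within 15 Gy at 24 h, edgeR called 0 of 10 between mice given CBLB502 and those not (0.0% of all tested genes), 0 had an unadjusted p under 0.05, and DESeq2 called 0. Over all genes the last 2 counts were 867 and 63. Within 6 Gy at 24 h the same counts for the 10 were 0, 0 and 0 (0.0% of all genes called), and over all genes 303 and 7. Libraries with and without CBLB502 did not overlap for 0 of the 10 within 15 Gy (12.1% of all genes) and for 1, Asns, within 6 Gy (10.8%). The intervals limit the sizes that remain possible. For Xbp1 the log2 difference between 15 Gy with CBLB502 and 15 Gy was -0.40 to 0.14 and between 6 Gy with CBLB502 and 6 Gy -0.28 to 0.27, for Dnajb9 -0.49 to 0.32 and -0.39 to 0.42, and for Herpud1 -0.56 to 0.60 and -0.45 to 0.71. For Atf3 they were wide, -2.00 to 0.40 and -1.83 to 0.57, and for Asns they were -0.61 to 0.50 and -0.05 to 1.05. Against control, edgeR did not call Asns in 6 Gy with CBLB502 (0.26, adjusted p = 0.472). There limma called it higher on log2(FPKM + 1) (0.59, adjusted p = 0.0136) and on log2(FPKM + 0.1) (0.79, adjusted p = 0.0205). The median of all genes in that comparison was 0.47 with limma on log2(FPKM + 1), against 0.07 with edgeR.

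Without radiation, CBLB502 gave 19.4, 26.7 and 31.8 CPM of Trib3, against 39.6, 37.2 and 46.1 CPM in control. The groups do not overlap, and the log2 fold change of -0.66 missed the threshold (SE 0.26, adjusted p = 0.133). Hspa5 had 347, 287 and 118 CPM and Hsp90b1 505, 248 and 240 CPM after CBLB502, a spread that left intervals of -1.21 to 0.31 and -0.69 to 0.56. Against control, 15 Gy with CBLB502 called the fall of Trib3 (-1.95, SE 0.27, adjusted p = 0.000101), Dnajb9 (-0.96, SE 0.20, adjusted p = 0.00235), Asns (-1.16, SE 0.27, adjusted p = 0.00592) and Herpud1 (-0.82, SE 0.28, adjusted p = 0.0473). The call of Herpud1 is lost under 10 of 15 alternatives, among them the leaving out of any 1 of its 6 libraries (adjusted p of 0.0701 to 0.155 over all 10). Interaction terms, the difference between the CBLB502 effect in irradiated and in unirradiated mice, called 0 of the 10 at 15 Gy and 0 at 6 Gy, also with DESeq2. Of all genes, 0.225% were called at 15 Gy (0.153% higher and 0.072% lower) and 0.324% at 6 Gy (0.243% higher and 0.0809% lower). At an unadjusted p under 0.05 there was 1 of the 10 in each, Xbp1 at 15 Gy (-0.44, interval -0.83 to -0.05) and Asns at 6 Gy (0.81, interval 0.04 to 1.59). Of the 11118 tested genes, 1045 at 15 Gy and 1262 at 6 Gy passed this threshold, so 1 of 10 is near the share of all genes.

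Circadian clock genes moved beside several of these differences, and the labels give no clock time of sampling. Dbp, an output gene of the clock, had 94.6, 53.5 and 31.7 CPM at 6 h after 15 Gy, 0.483, 24.4 and 18.1 CPM at 24 h and 0.728, 4.20 and 1.65 CPM at 3 d, against 94.3, 93.1 and 85.5 CPM in control. It had 1.27, 6.17 and 6.03 CPM at 6 h after 6 Gy. Arntl, which encodes the clock activator BMAL1 and peaks in the opposite phase, had 1.91 to 4.43 CPM at 6 h after 15 Gy and 18.7 to 25.1 CPM at 6 h after 6 Gy, against 3.49 to 5.29 CPM in control. At 6 h after 15 Gy Herpud1, Trib3 and Arntl overlapped control, and Dnajb9 and Hsp90b1 fell. Within 15 Gy at 24 h, the first library had the highest Arntl (58.1 CPM) and the lowest Dbp of its group. It also had the lowest Herpud1, Trib3, Dnajb9, Hspa5, Hsp90b1 and Asns of the group. Atf3 (50.2 CPM, against 178 CPM in the first), Atf4 and Ddit3 were lowest in the second library and Xbp1 in the third. A clock score, in which the mean log2 CPM of 6 genes (Dbp, Per1, Per2, Per3, Cry2 and Tef) is taken from that of 3 genes of the opposite phase (Arntl, Nfil3 and Npas2) and the result centred over the 27 libraries, averaged -2.45 ± 0.87 at 6 h, 1.19 ± 2.55 at 24 h and 2.19 ± 0.76 at 3 d after 15 Gy, 2.51 ± 0.61 at 6 h and -0.33 ± 0.13 at 24 h after 6 Gy, 2.35 ± 1.38 in 15 Gy with CBLB502, -1.24 ± 0.11 in 6 Gy with CBLB502 and -1.65 ± 1.04 after CBLB502 alone, against -2.58 ± 0.35 in control (SD, n = 3 each). Dnajb9 averaged 115 CPM at 3 d after 15 Gy, against 117 CPM in control. Trib3 averaged 13.1 CPM in 6 Gy with CBLB502, with scores of -1.3 to -1.11. After CBLB502 alone Trib3 averaged 25.9 CPM, with scores of -2.84 to -0.94. The part of the clock in these results was not tested, and sampling time and treatment cannot be told apart in this design.

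**Figure D4:**
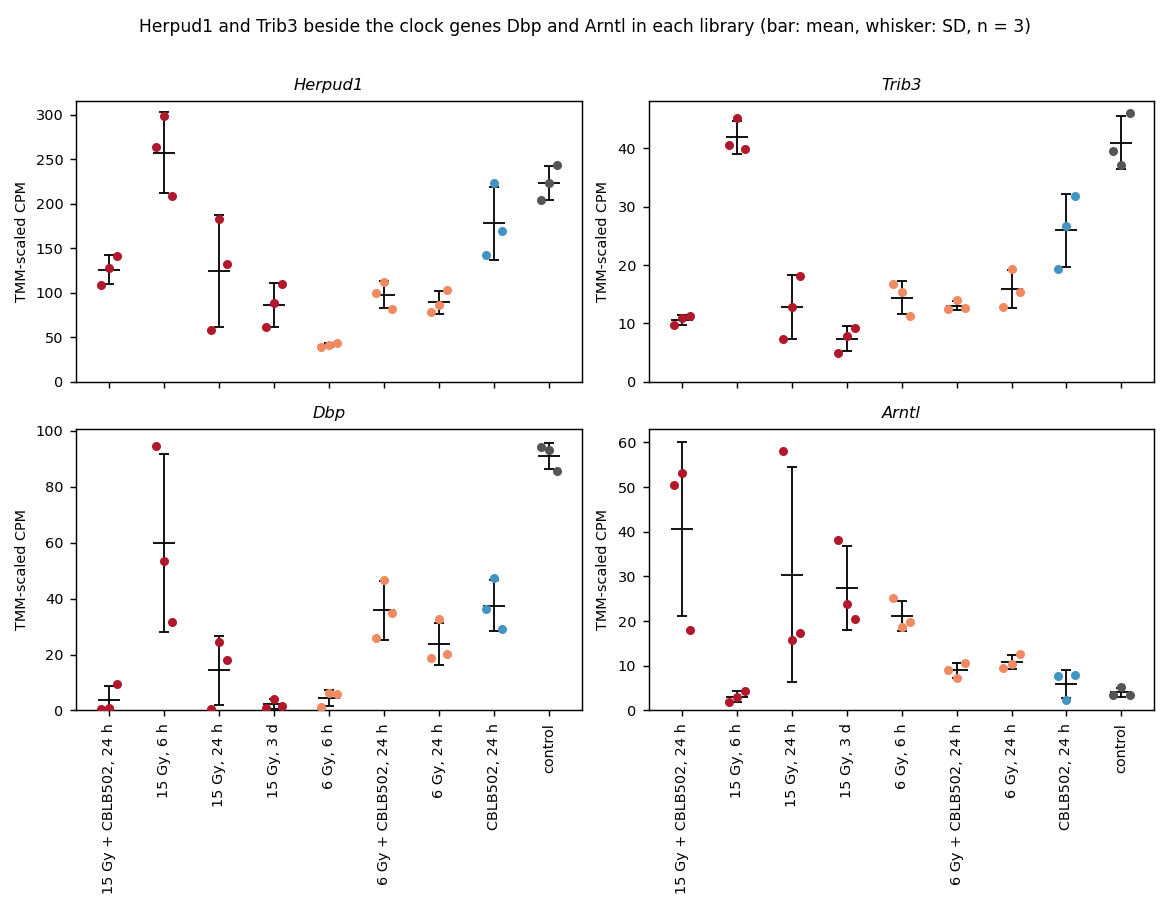
Herpud1 and Trib3 (top) and the clock genes Dbp and Arntl (bottom) in TMM-scaled CPM (vertical axes, linear from 0) in every library (points), with mean (bar) and SD (whisker, n = 3). The 15 Gy 6 h and control libraries have Arntl of at most 5.29 CPM and Trib3 of at least 37.2 CPM. The second library of CBLB502 alone has Arntl of 2.38 CPM and Trib3 of 26.7 CPM.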

How the data were processed

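Gene counts and FPKM of 27 intestinal libraries were used as the authors deposited them in 1 table, with whole-number counts and, per the file headers, FPKM per gene. The submitters' processing notes name Bowtie 0.12.2, HISAT2 2.0, StringTie 1.3.0 and build mm8, without roles. The sources used here do not give the counting tool, strand setting or annotation. Positions of 94.2% of matched identifiers, and of all 10 genes, equal those of GENCODE vM21 on GRCm38, so GRCm38 coordinates are given. An FPKM of 0 is stored as 0.0001.

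Counts were fitted in R 4.3.3 with edgeR 4.0.16 (TMM, quasi-likelihood F test, 1 mean per group, all 27 libraries, Benjamini-Hochberg adjustment within each of 15 comparisons). The SE is the size of the log2 fold change over the square root of F. The biological coefficient of variation was 31.0%. The fit was checked on simulated counts: for 15 Gy 24 h against control, on 11118 genes, edgeR recovered 14.0% of 57 genes changed 1.5-fold, 56.2% of 73 changed 2-fold and 74.3% of 70 changed 4-fold, with 4 unchanged genes among 105 calls. Precision is limited by 3 libraries per group rather than by depth, since the 10 genes had at least 197 counts in every library.

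The 10 genes, the pathway, marker and clock lists and the tests were chosen with earlier results of these data known. Genes named beside the 10 are, by rule, up to 3 called genes of a list with the smallest adjusted p and the 5 genes most correlated with Hspa5 and with Asns. Predicted and clone-named genes were left out of these correlations. Ern1, Wars, Ddit4 and the genes named to complete a short count were chosen after their values were seen. Alternatives were DESeq2 1.42.0, median-ratio scaling, limma 3.58.1 on log2(FPKM + 1) and on log2(FPKM + 0.1), no filter (31513 genes), replicate number as a block, the compared groups alone, mitochondrial genes left out (11081 genes remained), the fit without the 6 Gy 24 h libraries, and each library left out. Replicate numbers did not pair libraries: over 108 pairs of same-numbered libraries of different groups, the correlation of deviations from the group mean ran from -0.262 to 0.248. Sequences are from RefSeq, build GRCm38.p6.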

Additional observations from a re-analysis of the deposited data

Results flagged for a closer look

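After 15 Gy, levels at 6 h and 24 h differed by a direct edgeR test for 5 of the 10 genes (32.2% of all tested genes). Levels at 24 h and 3 d differed for 4 (25.3%). Between 6 h and 24 h the log2 difference was 1.17 for Hspa5, 0.96 for Hsp90b1, -1.71 for Trib3, -1.39 for Asns and -1.05 for Herpud1. Between 24 h and 3 d it was 1.92 for Asns, 0.85 for Dnajb9, 0.54 for Xbp1 and -0.79 for Trib3. Asns was thus lower at 24 h than at 6 h and higher at 3 d than at 24 h, while Trib3 was lower at each later time. With the compared groups fitted alone 3 and 1 of these calls were made. Those of Hspa5 and Hsp90b1 between 6 h and 24 h, and of Trib3 between 24 h and 3 d, are also lost on leaving out single libraries. The control libraries carry no time label, so each difference is only that between 2 irradiated groups. Change with time in mice without radiation cannot be taken from it.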

How the results depend on the processing

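Of 46 calls among the 150 results for the 10 genes, 28 held under every alternative run and 18 were lost under at least 1, with 0 changes of direction. Results without a call gained one 10 times under other settings and 8 times on leaving out 1 library. DESeq2 gave 5 of these. Among them were Atf3 in 15 Gy with CBLB502 against control (-1.50, adjusted p = 0.034) and at 3 d against 24 h after 15 Gy (-1.52, adjusted p = 0.0248). Xbp1 at 6 h after 15 Gy was another (0.33, adjusted p = 0.047). The number of the 10 called moved by over 1.5 times in these cases. Fitting the compared groups alone gave 0 for 15 Gy 24 h against control (3 in the fit of all libraries), 3 for 24 h against 6 h after 15 Gy (5) and 1 for 3 d against 24 h (4), and limma on log2(FPKM + 1) gave 2 for 15 Gy with CBLB502 against control (4). Leaving out 1 library at a time gave 1 to 3 for 15 Gy 6 h against control, with 1 without control library 3. It gave 1 to 3 for 15 Gy 24 h against control, with 1 without control library 1 or the first irradiated library. It gave 3 to 5 for 24 h against 6 h, with 3 without the third library of either time. The cause was not tested. The replicate block changed 1 call, raising Herpud1 at 24 h after 15 Gy past the threshold (-0.90, adjusted p = 0.0416), where DESeq2 also called it (-0.87, adjusted p = 0.0287). Median-ratio scaling and leaving out mitochondrial genes changed no call among the 10.

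Counts over all genes moved more. For 15 Gy 24 h against control, edgeR called 549 genes, and alternatives 12 (groups fitted alone) to 1061 (DESeq2). For CBLB502 against control it called 638, and alternatives 56 (groups fitted alone) to 1134 (DESeq2). For 6 Gy 24 h against control, 1843 genes rose and 1826 fell with edgeR, against 5806 and 435 with limma on log2(FPKM + 1), and for 6 Gy with CBLB502 2198 and 1945, against 6117 and 448. The split also moved for 15 Gy 3 d (1542 and 1731, against 2331 and 827), 15 Gy with CBLB502 (962 and 912, against 1253 and 434) and 3 d against 24 h (1241 and 1572, against 1482 and 888). Groups fitted alone also gave 1532 calls for 15 Gy 6 h (3219 in the fit of all libraries), 2142 for 15 Gy 3 d (3273), 1213 for 15 Gy with CBLB502 (1874), 2024 for 24 h against 6 h (3575) and 1663 for 3 d against 24 h (2813). With limma on log2(FPKM + 1) it was 2133 for 15 Gy 6 h. Where edgeR called 0 genes, DESeq2 called 63 (CBLB502 within 15 Gy) and 7 (within 6 Gy). For the interactions, edgeR called 25 at 15 Gy and 36 at 6 Gy, and alternatives 4 and 11 (groups fitted alone) to 128 and 158 (DESeq2). Leaving out 1 library gave 216 to 629 for 15 Gy 24 h, 176 to 779 for CBLB502, 1127 to 1996 for 15 Gy with CBLB502, 0 to 93 within 15 Gy, 0 to 2 within 6 Gy, and 7 to 48 and 0 to 82 for the interactions.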

Other observations

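Cytosolic heat shock genes serve protein folding outside the ER. Of 11 tested, 0 were called at 6 h after 6 Gy (log2 fold changes of -1.04 to 0.48, median -0.35), at 24 h and 3 d after 15 Gy or after CBLB502, and 2 fell at 6 h after 15 Gy, Hsp90aa1 and Hspa4l. At 24 h after 6 Gy Hspd1 and Hspe1, which encode mitochondrial chaperonins, rose and Dnajb1 fell. Markers of Paneth cells, which secrete through the ER, summed to 555 to 1238 CPM at 3 d after 15 Gy and 205 to 1052 CPM at 24 h after 6 Gy, against 124 to 177 CPM in control, and 6 and 5 of 10 rose. Summed smooth muscle markers were 3.22 to 99.1 CPM at 24 h after 6 Gy, against 1.63 to 4.56 CPM in control, and 3 of 5 tested rose. Of 6 tested T cell markers, 4 fell at 3 d after 15 Gy. The part of these cells in the results above was not tested.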
